A study of Mus musculus with 8 samples.

Results

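Hepatic bile acid synthesis was followed through 10 enzymes, Cyp7a1, Cyp8b1, Cyp27a1, Cyp7b1, Cyp39a1, Akr1d1, Amacr, Acox2, Hsd3b7 and Slc27a5, chosen by gene symbol as the enzymes that turn cholesterol into bile acids. All 10 were found among the 16650 genes measured by RNA-seq in 8 mouse livers. Of these livers, 4 were 2afl/fl, which carry the floxed Mfsd2a allele and no Cre, and 4 were labelled L2aKO, which carry the same floxed allele with a Cre driven by the albumin promoter. All mice received the NASH diet, rich in fat and given with fructose in the water, for 2 weeks from 8 weeks of age, and were male according to the methods of the study. Perfused livers were taken at 10 weeks of age and at zeitgeber time 4. The comparison asked whether loss of Mfsd2a, the carrier of lysophosphatidylcholine, from hepatocytes changed the liver transcriptome.

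Bile acids are made from cholesterol in hepatocytes, and their synthesis is the main route by which the body disposes of cholesterol. In the classical pathway Cyp7a1 adds the first hydroxyl group in the endoplasmic reticulum, while in the alternative pathway Cyp27a1 first oxidizes the side chain in mitochondria and Cyp7b1 then acts on the resulting oxysterol. Bile acids returning from the gut repress the first steps through the receptor FXR, encoded by Nr1h4, through its target Nr0b2 (SHP) and through the hormone FGF15. The side chain is later shortened in peroxisomes, and the product is joined to taurine before it is secreted.

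Promoter sequence is shown for Cyp8b1 and Akr1d1, whose levels varied widely from liver to liver, and for Cyp27a1, whose level varied less than theirs. The RefSeq promoter table used here (build GRCm38.p6) held entries for 5 of the 10 enzymes, namely Cyp8b1, Cyp27a1, Akr1d1, Acox2 and Hsd3b7. The 250 bases before the start are printed 5′ to 3′ on the strand of the gene. They lie at chr9:121916306-121916555 (minus strand) for Cyp8b1, at chr1:74713285-74713534 (plus strand) for Cyp27a1 and at chr6:37529923-37530172 (plus strand) for Akr1d1. Capitals mark every match, on either strand, to the HNF4 motif CAAAGTCCA, the LRH-1 motif CAAGGNC, the D-box TTATGNAA and the TATA box TATAAA.
Cyp8b1: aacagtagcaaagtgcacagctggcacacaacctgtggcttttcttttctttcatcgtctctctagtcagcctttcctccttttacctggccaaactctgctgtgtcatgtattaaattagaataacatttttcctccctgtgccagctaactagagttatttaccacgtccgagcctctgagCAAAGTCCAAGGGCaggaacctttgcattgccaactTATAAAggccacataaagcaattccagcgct
Cyp27a1: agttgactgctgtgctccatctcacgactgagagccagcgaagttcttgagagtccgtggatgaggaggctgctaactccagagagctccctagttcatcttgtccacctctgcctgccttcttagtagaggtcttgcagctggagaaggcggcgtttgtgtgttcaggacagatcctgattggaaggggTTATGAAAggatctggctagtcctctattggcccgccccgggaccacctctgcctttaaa
Akr1d1: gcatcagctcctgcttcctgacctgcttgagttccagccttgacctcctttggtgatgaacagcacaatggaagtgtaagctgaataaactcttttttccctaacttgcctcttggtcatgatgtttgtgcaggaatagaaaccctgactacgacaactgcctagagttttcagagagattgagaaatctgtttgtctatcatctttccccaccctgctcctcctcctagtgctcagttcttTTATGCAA

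In Cyp8b1 the HNF4 match began 67 bases before the start and shared 2 bases with the LRH-1 match that followed it, so that the capitals run together. The TATA box of Cyp8b1 began 31 bases before the start. Cyp27a1 held 1 D-box match (TTATGAAA), which began 60 bases before the start, and Akr1d1 held 1 (TTATGCAA), which filled the last 8 bases before the start. Neither Acox2 nor Hsd3b7 held a match to these letters in their windows. Among 32851 windows of this length in the table, 0.384% held the HNF4 motif, 15.0% the LRH-1 motif, 3.07% the D-box and 12.4% the TATA box. HNF4 and LRH-1, encoded by Hnf4a and Nr5a2, are nuclear receptors of hepatocytes, and the D-box is bound by clock-controlled factors such as Dbp. A match is given as a description of the letters and not as a site in use.

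Values are those normalized by the authors with a size factor for each library, and are given as mean ± SD of 4 livers per genotype. Differences are log2 fold changes of livers labelled L2aKO over 2afl/fl from limma, which was run on log2(value + 1). Following the criterion of the study, a gene was called when its unadjusted p was under 0.05 and its log2 fold change at least 0.32 in size, which is a rise by 25% or the matching fall. The size of 1 read in each library put the depth at 27.5M to 30.2M reads in 2afl/fl and at 28.3M to 37.2M in L2aKO, so counting error was small for every enzyme described here. Mfsd2a itself, checked first, was at 467, 1569, 299.6 and 513 in 2afl/fl replicates 1 to 4 and at 915, 721, 1422 and 1974 in the livers labelled L2aKO. The genotypes overlapped, and the mean was higher in the livers labelled L2aKO (log2 fold change 1.01, SE 0.59, limma p = 0.137, exact permutation p = 0.171). Without 2afl/fl replicate 2 the difference was 1.49 and Mfsd2a was called higher. The table gives 1 value per gene, so reads from the floxed part could not be looked at on their own, and each direction below is that of the labels. By immunoblot the study found no Mfsd2a protein in L2aKO liver, a measure unlike RNA of the whole gene. Whether these same livers were blotted is not stated. No 2 libraries were copies of each other. Hepatocyte markers were abundant in all 8 livers, with summed values of 2.35e+06 to 2.66e+06 in 2afl/fl and 2.56e+06 to 2.85e+06 in L2aKO.

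Of the 10 bile acid synthesis enzymes 0 were called, against 2.10% of all genes tested (349 of 16650; 219 higher, 1.32%, and 130 lower, 0.781%). The adjusted p of each was 0.9997 by limma with Benjamini-Hochberg adjustment over all genes, and 0 of the 16650 genes had an adjusted p under 0.05, while 581 had an unadjusted p under 0.05. By limma voom these counts were 0 and 531. The genotypes overlapped for all 10 enzymes, and did not overlap for 2.25% of all genes. The enzymes fell by their precision into 5 that were measured closely and 5 that were not. For Cyp27a1, Hsd3b7, Acox2, Amacr and Slc27a5 the 95% interval of the log2 fold change lay between -0.32 and 0.32. For Cyp7a1, Cyp8b1, Cyp7b1, Cyp39a1 and Akr1d1 the livers of each genotype differed so widely that the interval reached past these limits on both sides for Cyp7a1, Cyp8b1 and Cyp7b1, and past the upper limit for Cyp39a1 and Akr1d1. In whole liver, fewer cells of a type and less RNA per cell cannot be told apart.

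**Figure D1:**
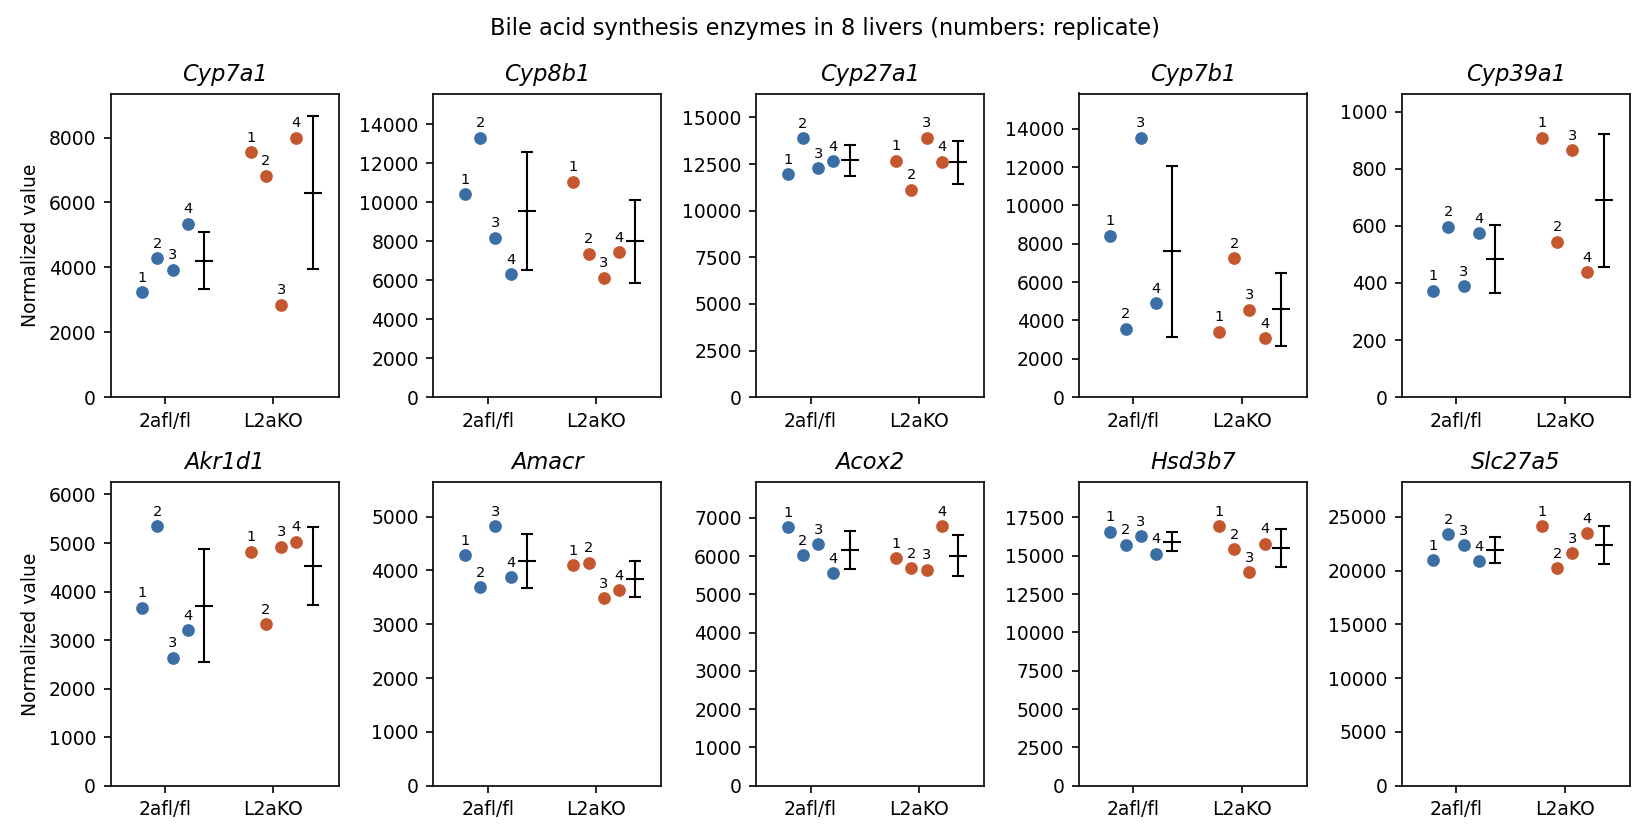
Normalized value (linear axis from 0) of each of the 10 bile acid synthesis enzymes in each liver, with 2afl/fl in blue and the livers labelled L2aKO in orange. Numbers beside points are replicate numbers, and black bars are mean ± SD of 4 livers. Cyp7a1 was above all 2afl/fl livers in 3 livers labelled L2aKO and below them all in 1, whereas Hsd3b7 and Slc27a5 hardly varied.

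The classical pathway was examined first. Cyp7a1 (chr4:6265612-6275632, minus strand, mm10) encodes its rate-limiting enzyme, the cholesterol hydroxylase. Its normalized value was 3240, 4279, 3926 and 5349 in 2afl/fl replicates 1 to 4, and 7545, 6819, 2846 and 7997 in L2aKO replicates 1 to 4. Thus 3 of the 4 livers labelled L2aKO were above every 2afl/fl liver, and the remaining one, replicate 3, was below every 2afl/fl liver. The means were 4198 ± 880 and 6302 ± 2355, a log2 fold change of 0.50 (SE 0.37, 95% interval -0.39 to 1.39, limma p = 0.221, exact permutation p = 0.257). The difference did not exceed the spread between livers when all 8 were used. Without L2aKO replicate 3 it was 0.85, and Cyp7a1 was then called higher. Over the fits that each left out 1 library it ran from 0.35 to 0.85. In the same L2aKO replicate 3 the mean log2 level of 9 recruited macrophage markers lay 0.661 above the mean of the 8 livers, the highest of all livers, and the others ran from -0.264 to 0.22. This liver was also the highest by periportal (0.171), hepatocyte (0.123) and sinusoidal endothelial (0.119) genes, and by no other list. With genotype means removed, the median r of Cyp7a1 was -0.48 with recruited macrophage markers and -0.55 with Kupffer cell markers. It was also negative with stellate cell (-0.415), hepatocyte (-0.286), sinusoidal endothelial (-0.237), periportal (-0.212) and bile duct (-0.161) genes. With T, NK and B cell markers it was 0.232, and with red cell genes 0.189. L2aKO replicate 3 had the largest deviation of Cyp7a1 from its genotype mean (-1.039), so these values rest largely on that liver. The highest liver by Kupffer cell markers was L2aKO replicate 2 (0.407), where Cyp7a1 was at 6819. The part of any of these cells in the Cyp7a1 value was not tested.

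Cyp8b1 (chr9:121914356-121916305, minus strand), a gene of 1 exon, encodes the sterol hydroxylase that makes cholic acid and so sets its share in the bile acid pool. Its normalized value was 10424, 13313, 8175 and 6300 in 2afl/fl and 11062, 7369, 6120 and 7428 in L2aKO. The 3 highest livers came from both genotypes, and only L2aKO replicate 3 was below all 2afl/fl livers. The means were 9553 ± 3021 and 7995 ± 2132 (log2 fold change -0.24, SE 0.28, 95% interval -0.90 to 0.43, limma p = 0.424, exact permutation p = 0.400). It was -0.06 without 2afl/fl replicate 2 and -0.42 without 2afl/fl replicate 4. The r between Cyp7a1 and Cyp8b1 over the 8 livers was 0.02.

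Hsd3b7 (chr7:127800609-127803802, plus strand) encodes the dehydrogenase that follows Cyp7a1 and Cyp7b1 in both pathways. Its normalized value was 16554, 15715, 16277 and 15125 in 2afl/fl and 16932, 15425, 13943 and 15784 in L2aKO. Both the highest and the lowest liver were labelled L2aKO. The log2 fold change was -0.04 (SE 0.07, 95% interval -0.19 to 0.12), that is, between 0.875 and 1.08-fold. Exons of Hsd3b7 overlap those of 9430064I24Rik on the opposite strand and Gm49388 on the same strand, and the strand setting of the counting was not given in the sources used here, so reads of these genes cannot be told apart.

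Akr1d1 (chr6:37530173-37568815, plus strand) encodes the steroid reductase that gives bile acids their bent ring system. Its normalized value was 3663, 5348, 2634 and 3201 in 2afl/fl and 4819, 3322, 4922 and 5024 in L2aKO. In L2aKO 3 livers were alike and replicate 2 lay far below them, but 2afl/fl replicate 2 had the highest value of all. The means were 3712 ± 1169 and 4522 ± 804 (log2 fold change 0.32, SE 0.24, 95% interval -0.26 to 0.89, limma p = 0.237, exact permutation p = 0.343). Without 2afl/fl replicate 2 the difference was 0.51 and Akr1d1 was called higher, and without 2afl/fl replicate 3 it was 0.17 and not called.

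The alternative pathway contained both a steady and a variable enzyme. Cyp27a1 (chr1:74713535-74737897, plus strand), the mitochondrial sterol hydroxylase, had a normalized value of 11952, 13903, 12277 and 12655 in 2afl/fl and of 12689, 11120, 13921 and 12639 in L2aKO. The range of the 2afl/fl livers lay within that of the livers labelled L2aKO. The log2 fold change was -0.01 (SE 0.08, 95% interval -0.18 to 0.16), which leaves room for 0.88 to 1.11-fold.

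Cyp7b1 (chr3:18071950-18243338, minus strand) encodes the oxysterol hydroxylase and is known in mouse liver for higher levels in males than in females. Its normalized value was 8411, 3565, 13536 and 4888 in 2afl/fl and 3423, 7248, 4559 and 3080 in L2aKO. The highest liver was 4.40 times the lowest, the widest range of the 10 enzymes, and most of that range was spanned by 2afl/fl livers alone. Below them lay 2 livers labelled L2aKO. The means were 7600 ± 4455 and 4577 ± 1889 (log2 fold change -0.63, SE 0.50, 95% interval -1.83 to 0.58, limma p = 0.252, exact permutation p = 0.229). The difference shrank to -0.29 without 2afl/fl replicate 3 and was -0.93 without 2afl/fl replicate 2, and it was not called in either fit.

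Cyp39a1 (chr17:43667372-43751431, plus strand) encodes another oxysterol hydroxylase and had the lowest level per length of the 10. Its normalized value was 373, 597, 389 and 574 in 2afl/fl and 909, 545, 866 and 439 in L2aKO. L2aKO replicates 1 and 3 were above all 2afl/fl livers, and replicates 2 and 4 were within their range. The means were 484 ± 119 and 689 ± 233 (log2 fold change 0.48, SE 0.29, 95% interval -0.22 to 1.18, limma p = 0.149, exact permutation p = 0.171). Among the fits that left out 1 library, Cyp39a1 was called higher only without L2aKO replicate 4 (0.67), and the difference was 0.32 without L2aKO replicate 1.

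Side chain shortening and activation were measured closely. Amacr (chr15:10981756-10996624, plus strand), the peroxisomal and mitochondrial racemase that prepares the side chain for oxidation, had a normalized value of 4279, 3693, 4823 and 3879 in 2afl/fl and of 4099, 4140, 3487 and 3631 in L2aKO. Livers labelled L2aKO made up the 2 lowest values, but the ranges overlapped (log2 fold change -0.12, SE 0.09, 95% interval -0.31 to 0.08, limma p = 0.215, exact permutation p = 0.343). Acox2 (chr14:8225511-8259019, minus strand), the peroxisomal oxidase for bile acid intermediates, was at 6749, 6027, 6306 and 5545 in 2afl/fl and at 5951, 5676, 5640 and 6781 in L2aKO, with no separation (-0.03, SE 0.08, 95% interval -0.20 to 0.13). Slc27a5 (chr7:12988346-12998192, minus strand), the ligase that couples bile acids to coenzyme A before conjugation, was at 20949, 23371, 22336 and 20857 in 2afl/fl and at 24138, 20224, 21601 and 23463 in L2aKO. The lowest and the highest value were both in livers labelled L2aKO, and the log2 fold change was 0.03 (SE 0.07, 95% interval -0.13 to 0.19).

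**Figure D2:**
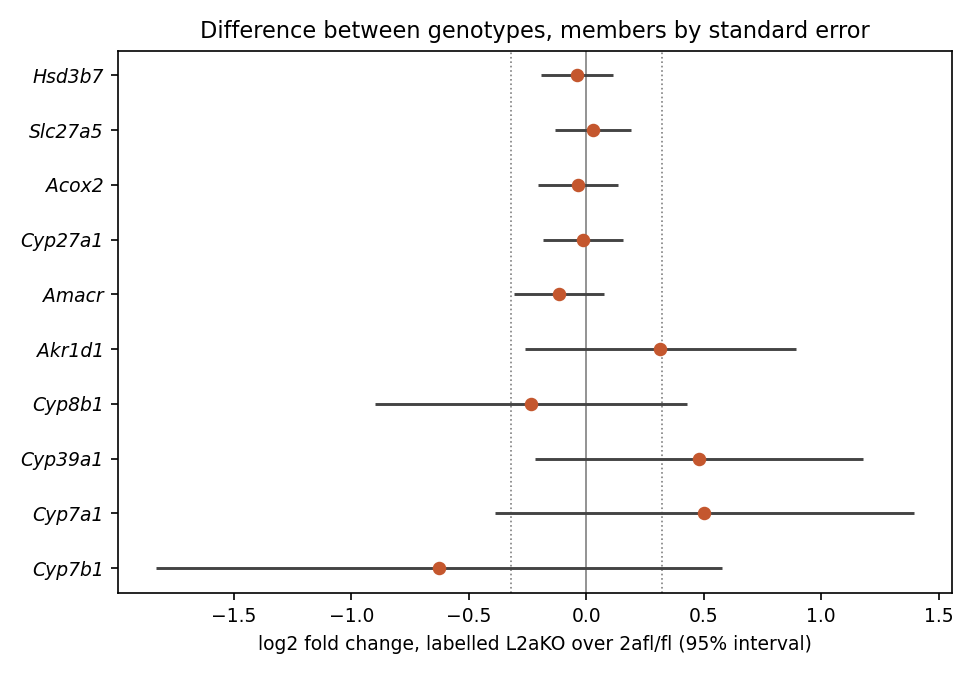
log2 fold change of each enzyme, livers labelled L2aKO over 2afl/fl, with its 95% interval from the limma fit, ordered by standard error; dotted lines mark the limits of -0.32 and 0.32. The intervals of Hsd3b7, Slc27a5, Acox2, Cyp27a1 and Amacr lie between the dotted lines, and that of Cyp7b1 runs from -1.83 to 0.58.

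The enzymes also differed in level. Per kilobase of annotated exon, the mean normalized value over the 8 livers was 9072 for Slc27a5, 5819 for Cyp27a1, 5677 for Hsd3b7 and 4499 for Cyp8b1. It was 2811 for Cyp7b1 and between 1258 and 1643 for Acox2, Amacr, Akr1d1 and Cyp7a1. Cyp39a1, at 192, was the lowest. The rate-limiting Cyp7a1 was thus among the lower enzymes by level per length, and the ligase of the last steps was the highest.

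The spread between livers of the same genotype separated the enzymes as well. It was given as the residual SD on the log2 scale and set beside the 7958 genes whose mean value was 300 or more and whose median was 0.106. Cyp7b1 had a residual SD of 0.72 (percentile 99.3 of those genes), Cyp7a1 of 0.54 (98.4), Cyp39a1 of 0.44 (97.4), Cyp8b1 of 0.41 (97.2) and Akr1d1 of 0.37 (96.2). The remaining 5 enzymes lay between 0.09 for Hsd3b7 and 0.15 for Amacr (percentiles 38.2 to 74.0). The cytochrome P450 enzymes were therefore found on both sides, with Cyp27a1 at 0.12.

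Next, the enzymes were compared with each other across the 8 livers, as 45 pairs. Cyp7b1 and Akr1d1 ran opposite to each other (r = -0.87, exact permutation p = 0.00481, adjusted over the 45 pairs 0.217; rho = -0.79, p = 0.0279, adjusted 0.344). The r was -0.80 without the 2 livers farthest from the median of Cyp7b1, -0.81 within the 4 2afl/fl livers and -0.91 within the 4 livers labelled L2aKO. Cyp7b1 and Amacr ran together (r = 0.83, exact permutation p = 0.0104, adjusted 0.234; rho = 0.76, p = 0.0368, adjusted 0.344), but without the 2 farthest livers r was 0.42, so the relation rests on those livers. Akr1d1 and Amacr ran opposite (r = -0.80, exact permutation p = 0.0167, adjusted 0.250; rho = -0.74, p = 0.0458, adjusted 0.344; -0.76 without the 2 farthest). None of the 45 pairs passed 0.05 after adjustment. When every library was rescaled to the same sum, an alternative added after the data had been seen, 1 pair passed, Akr1d1 and Amacr (r = -0.91, exact permutation p = 0.000769, adjusted 0.0346).

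**Figure D3:**
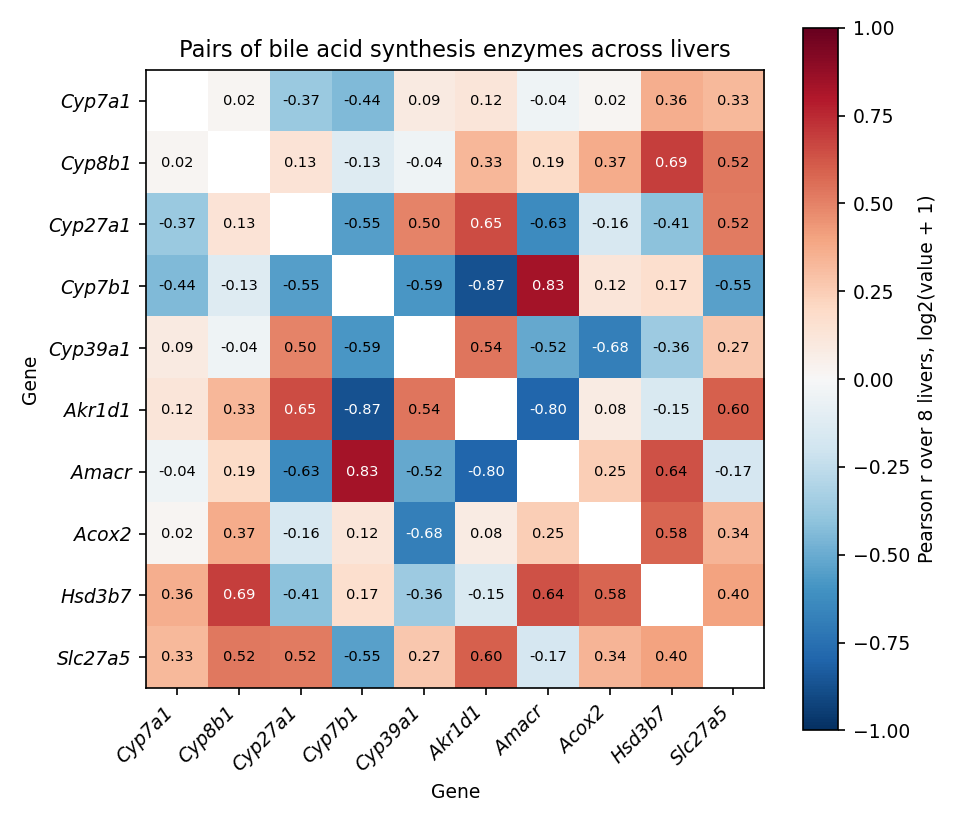
Pearson r of log2(value + 1) over the 8 livers for each of the 45 pairs of enzymes, from -1 in blue to 1 in red. Cyp7b1 against Akr1d1 (-0.87), Cyp7b1 against Amacr (0.83) and Akr1d1 against Amacr (-0.80) are the strongest.

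The order of livers by these enzymes could be read beside genes known to differ between male and female mouse liver. The mean log2 level of 24 male-biased genes, which include major urinary proteins such as Mup7, deviated from the mean of the 8 livers by 0.376, -0.33, 0.941 and -0.0577 in 2afl/fl replicates 1 to 4 and by -0.459, 0.263, -0.328 and -0.405 in L2aKO. The highest 3 livers by this measure, 2afl/fl replicates 3 and 1 and L2aKO replicate 2, were the highest 3 by Cyp7b1. With genotype means removed, Cyp7b1 had a positive r with 23 of the 24 genes (median r 0.73) and Amacr with 22 (0.69), while Akr1d1 had a positive r with 3 (-0.72), Cyp27a1 with 2 (-0.65), Cyp39a1 with 4 (-0.42) and Slc27a5 with 3 (-0.37). Over all other genes these medians were within 0.01 of 0. Cyp7a1 had a positive r with 11 of the 24 (-0.06), Cyp8b1 with 6 (-0.23), Acox2 with 14 (0.14) and Hsd3b7 with 19 (0.21). With 26 female-biased genes Cyp7b1 had a positive r in 6 (median r -0.33), Amacr in 7 (-0.33) and Akr1d1 in 18 (0.41). Cyp27a1 had one in 19 (0.30), Cyp39a1 in 18 (0.175) and Slc27a5 in 18 (0.44). Except for Slc27a5, these medians lay nearer 0 than those with the male-biased genes. The medians were 0.08 for Cyp7a1, 0.24 for Cyp8b1, -0.04 for Acox2 and -0.02 for Hsd3b7. The pattern was not particular to the sex-biased genes. With 10 Kupffer cell markers Cyp7b1 had a positive r in 10 (median r 0.78) and Amacr in 9 (0.52), whereas Cyp7a1 (-0.55), Akr1d1 (-0.48), Slc27a5 (-0.44) and Cyp27a1 (-0.39) each had a positive r with 1 and Cyp39a1 with 0 (-0.31). The part of these cells in the enzymes' values was not tested. These are descriptions over 8 livers, and the genes of a list share the same livers.

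**Figure D4:**
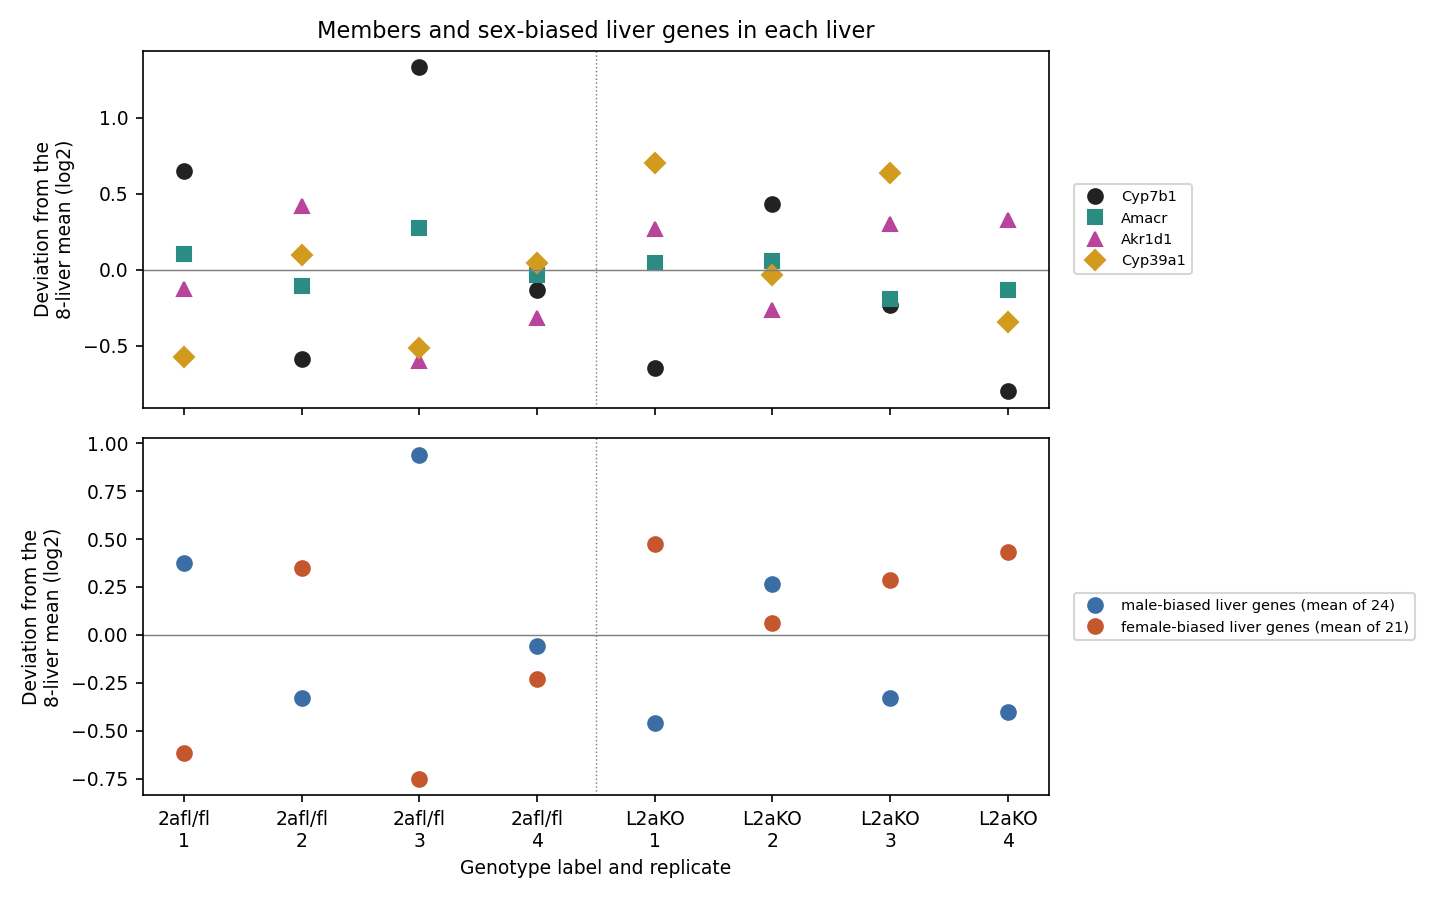
Deviation from the 8-liver mean (log2) of Cyp7b1, Amacr, Akr1d1 and Cyp39a1 (top) and of the mean of 24 male-biased and 21 female-biased liver genes whose mean value was 10 or more (bottom), in each liver by label and replicate. 2afl/fl replicate 3 has the highest Cyp7b1, the highest male-biased level (0.941) and the lowest female-biased level (-0.753).

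The sex-biased genes were also compared between the genotypes, and their medians lay farther from 0 than that of the enzymes, with no test of the difference. Of 24 male-biased genes 21 had a negative and 3 a positive log2 fold change (median -0.30), and 1 was called, the cytochrome P450 gene Cyp2u1 (4625 ± 844 against 3245 ± 602, log2 fold change -0.51, SE 0.16). Of 26 female-biased genes 23 were positive and 3 negative (median 0.56), and 5 were called higher, namely Cyp2a4, Cyp2c40, Cyp2c69, Cyp17a1 and Lifr. Cyp2c40, for example, was at 466 ± 190 in 2afl/fl and 1139 ± 198 in the livers labelled L2aKO (log2 fold change 1.35, SE 0.29). Cyp2a4, Cyp2c40, Cyp2c69 and Mup7 have near-identical relatives that can share reads, so their values are uncertain. The calls of Cyp2u1, Cyp2a4 and Cyp2c40 stood in all 8 fits that left out 1 library, whereas Cyp2c69 and Lifr were each lost in 5 and Cyp17a1 in 4 of them. The call of Cyp2c69 was also lost with replicate number as a block. The 10 enzymes had a median of -0.02 with 4 positive and 6 negative, and all genes had a median of 0.00034.

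**Figure D5:**
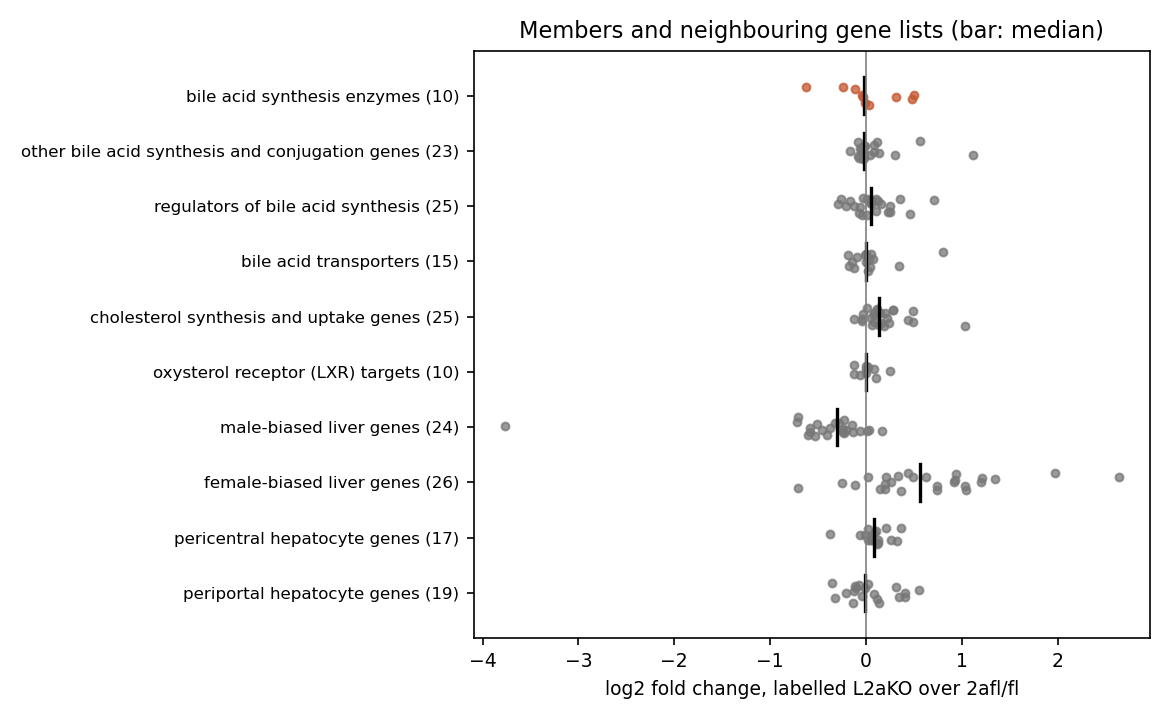
log2 fold change, livers labelled L2aKO over 2afl/fl, of each gene (points) in the 10 bile acid synthesis enzymes (orange) and in 9 other lists (grey), with the number of genes in parentheses and the median as a black bar. The enzymes have a median of -0.02, the male-biased genes of -0.30 and the female-biased genes of 0.56.

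Other genes around bile acid synthesis were taken from lists written from general knowledge. Of 23 further genes of synthesis and conjugation, 8 were positive and 15 negative, 0 were called, and the median was -0.02. Scp2, which carries sterols and acts in peroxisomal thiolysis, differed by -0.05 on the log2 scale (SE 0.09), and Slc27a2, a peroxisomal acyl-CoA ligase, by -0.07 (SE 0.08). Cyp2c70 and Por were picked for their roles after their values had been seen. Cyp2c70, which makes muricholic acids in mice, was at 16336 ± 6776 and 17031 ± 3465 (0.14, SE 0.33). Por, the reductase that passes electrons to microsomal P450 enzymes, was at 4787 ± 1355 and 7135 ± 2574 (0.57, SE 0.32). The Por difference ran from 0.34 without 2afl/fl replicate 1 or L2aKO replicate 4 to 0.71 without L2aKO replicate 2.

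Among 25 regulators 16 were positive and 9 negative, and 0 were called (median 0.05). Hnf4a was at 24036 ± 2810 and 23379 ± 2634 (log2 fold change -0.04, SE 0.10), Rxra, the partner of FXR, differed by 0.04 (SE 0.07), and Prox1, a repressor of Cyp7a1, by -0.21 (SE 0.14). Some were again singled out for their roles once their values were known. Nr1h4 was at 3790 ± 490 and 3372 ± 423 (-0.17, SE 0.11), and its target Nr0b2 at 1639 ± 418 and 1318 ± 185 (-0.29, SE 0.20). Without 2afl/fl replicate 1 Nr0b2 differed by -0.43 and was called lower, while without 2afl/fl replicate 3 it differed by -0.16. Nr1h4 ran from -0.24 without L2aKO replicate 1 to -0.09 without 2afl/fl replicate 4, and was not called in either fit. Nr5a2 differed by -0.03 (SE 0.07). Fgfr4 and Klb, which form the receptor for FGF15, differed by 0.10 (SE 0.06) and 0.16 (SE 0.16), and Klb ran from 0.05 without 2afl/fl replicate 1 to 0.29 without 2afl/fl replicate 2. Dbp was at 815 ± 480 and 1286 ± 775 (0.71, SE 0.76), so its spread within each genotype was wide at the shared time of day. The Dbp difference was 0.17 without 2afl/fl replicate 1 and 1.15 without L2aKO replicate 1.

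Of 15 bile acid transporters 1 was called, Slc10a2, the sodium-dependent carrier known mainly from ileum and bile ducts (309 ± 125 against 522 ± 145, log2 fold change 0.81, SE 0.33). This call was lost with replicate number as a block and in 5 of the 8 fits that left out 1 library, namely those without 2afl/fl replicate 3 or 4 or L2aKO replicate 2, 3 or 4. The summed value of 8 bile duct markers ran from 435 to 890 in 2afl/fl and from 567 to 2771 in the livers labelled L2aKO. The top of that range rests on Onecut1 in L2aKO replicate 4 (2598, against 123 to 430 in the other livers), and without Onecut1 the sum ran from 277 to 461 in 2afl/fl and from 174 to 408 in L2aKO, with replicate 4 the lowest of all livers. The part of bile duct cells in the Slc10a2 value was not tested. Of the other transporters 7 were positive and 7 negative.

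Of 25 genes of cholesterol synthesis and uptake, the supply of the pathway, 21 were positive and 4 negative, and 0 were called (median 0.14). Lcat differed by 0.06 (SE 0.06) and Insig1 by 0.24 (SE 0.41), the latter running from 0.01 without 2afl/fl replicate 3 to 0.59 without 2afl/fl replicate 2. With genotype means removed, Akr1d1 had a positive r with 23 of the 25 (median r 0.78), Cyp27a1 with 23 (0.50) and Cyp8b1 with 20 (0.46), whereas Cyp7b1 and Amacr each had a positive r with 1 (-0.50 and -0.58) and Cyp7a1 with 5 (-0.38). Of 10 targets of the oxysterol receptors LXR, 6 were positive and 4 negative and 0 were called. Pericentral genes, the zone where Cyp7a1 is mainly made, held 14 positive and 3 negative of 17, with Slc1a2 called higher and Lgr5 lower, and periportal genes 9 and 10 of 19, with Pck1 called higher and G6pc lower. Slc1a2, Lgr5 and Pck1 were each lost in 4 and G6pc in 2 of the fits that left out 1 library.

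Markers of other liver cells were set beside the enzymes. The summed level of 10 Kupffer cell markers ran from 8261 to 10482 in 2afl/fl and from 9541 to 11975 in L2aKO, with 10 positive and 0 called. That of 10 recruited macrophage markers ran from 1345 to 1573 and from 1530 to 1900, with 10 positive and Lgals3 called higher. Lgals3 was at 83.9, 76.2, 175 and 93.8 in L2aKO replicates 1 to 4 and at 59.6 to 79.5 in 2afl/fl. Its call rests on L2aKO replicate 3. Endothelial markers were positive in 9 of 10 with 0 called, stellate cell markers in 6 of 10 with Col1a1 called higher, bile duct markers in 6 of 8 with 0 called, and T, NK and B cell markers in 7 of 8 with Ms4a1 called higher. Of 6 red cell genes 4 were positive, and the globin genes Hba-a1, Hba-a2 and Hbb-bs were called higher in all 8 fits that left out 1 library. Hba-a1 and Hba-a2 are near-identical copies that can share reads. Every gene tested had a mean value of at least 1, so no tested marker could be at 0 in all 8 livers.

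Finally, the genes most like the variable enzymes were listed, by Pearson r after removal of the genotype means, among 11828 other genes whose mean value was 50 or more. For Cyp7a1 these were Map1lc3b (0.97), Trim23 (0.96) and Slc25a46 (0.95), and for Cyp8b1 Ogn (0.98), Sec16b (0.97) and Hikeshi (0.97). For Cyp7b1 they were 4933400F21Rik (0.98), Itgal (0.98) and Arf6 (0.97), and for Cyp39a1 Hdac7 (0.97), Mug-ps1 (0.97) and Snai2 (0.97). With 8 livers and this many genes searched, values of this size are a description of these libraries.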

How the data were processed

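Liver RNA of 8 mice was sequenced, 1 library per mouse, and each of the 8 columns was matched to a genotype through its label (0 columns left over). According to the methods, reads were mapped to mm10 with STAR 2.7.8a in Partek Flow version 10. The values deposited by the authors are a normalized signal, in which a DESeq2 size factor scales each library. Annotation, quantification and strand settings were not given in the sources used here. Low values alone were checked, with the size of 1 read in each library chosen to give the most whole numbers. Of these low values, 88.7 to 89.5% per library lay within 0.02 of a whole number of reads. No test for counts was therefore the main test, and limma voom was run on the deposited values only as an alternative.

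All 16650 genes had a mean value of at least 1 (smallest 1.08) and were tested with limma 3.58.1 in R 4.3.3 (lmFit, eBayes with trend and robust, two-sided, no covariates) on log2 of the value plus 1. Exact permutation tests ran over the 70 assignments of livers, with a smallest possible p of 0.0286, or over all pairings for correlations. Steps were tested on simulated data. Coordinates are those of the table, and exon lengths are from GENCODE. Alternatives changed the pseudocount, filter, scaling, eBayes settings, weights, block, tool and criterion, and left out each library.

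The members and lists were chosen with earlier results of these data known. The text names all members, Mfsd2a, every called list gene, up to 4 list genes of highest mean, and the 3 genes most like each of 4 variable enzymes; other genes are said to be chosen after their values were seen. Cyp11a1, Fgf15, Cyp2b13, Cyp3a41b, Sult2a1, Sult2a2, Sult3a1, Tff2, Trac and Igkc, also listed, were not analysed here. The labels name separate mice by number only, and p-values of genotype differences set each difference against the spread between these samples.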

Additional observations from a re-analysis of the deposited data

Results flagged for a closer look

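A library was looked at again by its gap to the nearest library of the same genotype, divided by the range of the genotype. Gap and range were taken on the log2 scale, although the values printed below are not logged. The ratio had to be above Dixon's 95% critical value for groups of 4. The screen covered the 10 enzymes and Mfsd2a in each genotype, 22 groups, and chance flags about 1 in 20 groups. In L2aKO replicate 3 Cyp7a1 was at 2846, while the other livers labelled L2aKO were at 6819 to 7997 (gap over range 0.846). In L2aKO replicate 2 Akr1d1 was at 3322, while the others were at 4819 to 5024 (gap over range 0.899).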

How the results depend on the processing

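The 0 enzymes called stayed 0 under every alternative that used all 8 libraries and ran from 0 to 1 over the fits without 1 library. The count over all genes, 349, was 229 with a mean value of at least 10, 581 without the limit on the fold and 0 by adjusted p (2 without 2afl/fl replicate 2), and it ran from 299 to 427 without 1 library. Quantile normalization gave 167 higher and 169 lower genes, against 219 and 130 as deposited; its median log2 fold change over all genes was -0.003. Leaving out 1 library reversed the sign of small differences, over ranges of -0.0638 to 0.0442 for Cyp27a1, -0.0939 to 0.0107 for Acox2, -0.0820 to 0.0114 for Hsd3b7, -0.00869 to 0.0764 for Slc27a5, -0.0434 to 0.328 for Cyp2c70, -0.0877 to 0.0296 for Hnf4a and -0.0865 to 0.00576 for Nr5a2. Replicate numbers did not pair the livers (r of same-numbered deviations from -0.119 to 0.0612), and a replicate block gave 359 called genes and 0 called enzymes. The pairs of enzymes that passed adjustment were 1 under the same sum in every library, added after the data had been seen, and 0 as deposited and without each library in turn. With 4 livers per genotype, the spread and not the depth limits the variable enzymes.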

Other observations

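After the data had been seen, Mfsd2a was set beside the 10 enzymes across the 8 livers, and p-values were adjusted over 55 relations, these 10 and the 45 pairs. Akr1d1 ran with Mfsd2a (r = 0.92, exact permutation p = 0.00189, adjusted 0.0784; rho = 0.90, exact permutation p = 0.00456, adjusted 0.126), and r was 0.88 without the 2 livers farthest from the median of Mfsd2a, 0.97 within 2afl/fl and 0.77 within the livers labelled L2aKO. Amacr ran opposite to it (r = -0.88, exact permutation p = 0.00434, adjusted 0.0784; rho = -0.86, exact permutation p = 0.0107, adjusted 0.196; -0.76 without the 2 farthest), as did Cyp7b1 (r = -0.87, exact permutation p = 0.0057, adjusted 0.0784; rho = -0.90, exact permutation p = 0.00456, adjusted 0.126; -0.69 without the 2 farthest). None of the 55 relations passed 0.05 after adjustment. For Cyp7a1 r was 0.25 and for Cyp8b1 0.08.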
